A study of Mus musculus with 35 samples.

Results

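The transcripts of 10 nuclear receptors that hepatocytes are known to use were followed in mouse liver after styrene inhalation. They are Nr1i2, Nr1i3, Nr1h4, Rxra, Ppara, Pparg, Hnf4a, Nr5a2, Esr1 and Thrb. The 10 genes were chosen by name, out of 17097 genes for which a probe set (a group of short probes that read 1 transcript on the array) named that gene alone. The 10 genes had 18 such probe sets among 28898, and the brightest of a gene's probe sets, by its mean over the 35 arrays, was taken as its main one. The other probe sets of Nr1i2, Rxra, Ppara and Hnf4a are described beside the main ones.

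All mice were adult, male, wild-type C57Bl/6, an inbred laboratory strain, and each liver was read on 1 array. The 7 groups breathed air alone or styrene vapour at 1, 5, 10, 20, 40 or 120 ppm for a single exposure of 6 hours and were killed the next morning, with 5 mice in each group. Styrene is the monomer of polystyrene, and the liver oxidises it to styrene oxide. The mice came from 1 supplier and had free access to food and water, so the values describe 1 strain, 1 sex and 1 time after exposure.

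Nuclear receptors are transcription factors that share a zinc-finger DNA-binding domain and, in most cases, a pocket that binds a small lipid-soluble ligand. Many of them bind DNA as a heterodimer with a retinoid X receptor, of which RXR alpha (Rxra) is a main form in hepatocytes. In liver they couple the concentration of foreign chemicals, bile acids, fatty acids and hormones to the transcription of enzymes and transporters. The array reads the amount of each receptor's RNA, and neither the receptor protein nor its ligand was measured.

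The promoters of the 3 receptors that sense foreign chemicals and bile acids are shown because their transcripts were all higher at 40 and 120 ppm than in air. The sequences are from RefSeq on the GRCm38.p6 assembly and span 250 bases before to 50 bases after the gene start, 5′ to 3′ on the strand of the gene. Nr1i3 lies at chr1:171213720-171214019 on the plus strand, Nr1i2 at chr16:38294775-38295074 on the minus strand and Nr1h4 at chr10:89506609-89506908 on the minus strand. Capitals mark matches to the searched motifs.
Nr1i3: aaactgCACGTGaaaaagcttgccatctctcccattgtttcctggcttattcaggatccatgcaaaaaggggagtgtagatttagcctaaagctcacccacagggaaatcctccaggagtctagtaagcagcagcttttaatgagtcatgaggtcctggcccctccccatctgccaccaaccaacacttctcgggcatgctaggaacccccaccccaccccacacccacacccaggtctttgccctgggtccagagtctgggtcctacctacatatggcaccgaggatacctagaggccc
Nr1i2: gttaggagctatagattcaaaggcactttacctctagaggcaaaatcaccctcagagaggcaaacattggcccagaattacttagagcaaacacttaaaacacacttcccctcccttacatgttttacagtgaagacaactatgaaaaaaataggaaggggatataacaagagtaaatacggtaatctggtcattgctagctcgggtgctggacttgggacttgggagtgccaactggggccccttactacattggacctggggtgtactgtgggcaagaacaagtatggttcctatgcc
Nr1h4: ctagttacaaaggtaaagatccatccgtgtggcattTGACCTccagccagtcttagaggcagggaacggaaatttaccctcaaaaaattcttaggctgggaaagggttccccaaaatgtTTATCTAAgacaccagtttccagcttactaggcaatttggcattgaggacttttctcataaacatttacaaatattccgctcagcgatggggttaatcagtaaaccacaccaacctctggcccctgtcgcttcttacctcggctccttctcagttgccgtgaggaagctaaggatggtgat

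Both strands were searched for 4 motifs. AGGTCA is the half-site to which many nuclear receptors bind, and CACGTG is the E-box of the clock proteins CLOCK and BMAL1. TTATNTAA, where N is any base, is a loose pattern for the D-box of the PAR bZIP factors. The DR1 repeat is a tandem pair of the AGGTCA half-site with a single base between. The Nr1i3 window held a CACGTG that begins 244 bases before the gene start, a motif present in 7.15% of 32851 mouse promoters of the same 300 bases. The Nr1h4 window held the half-site on the opposite strand, read as TGACCT, 214 bases before the start. It also held a match to the loose D-box pattern, read as TTATCTAA, 131 bases before the start. The half-site was present in 16.3% and the loose D-box pattern in 3.51% of all promoters. The Nr1i2 window held none of the 4 motifs. Over the 17 promoters that RefSeq gives for the 10 genes, none held the DR1 repeat, which 0.0396% of all promoters held. These matches describe the letters of the windows and not binding.

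Values are on the log2 scale as deposited, so that a difference of 1 is a doubling of the array signal. Differences were tested with limma, a linear model fitted across all 45037 probe sets that are not controls, and a gene was called when its p, adjusted over all of these probe sets, was under 0.05. No receptor was called at 1, 5 or 10 ppm against air by limma, and 3, 2 and 4 of the 10 had an unadjusted p under 0.05, as did 5.63%, 7.08% and 6.37% of all probe sets. After adjustment 0.00444%, 0.153% and 0% of all probe sets were called at these concentrations. At 20 ppm 1 of 10 receptors was called higher and none lower, where 1.03% of all probe sets were called and 0.497% of the genes' main probe sets passed upward and 0.959% downward. That share is uncertain, since the 466 probe sets called at 20 ppm became 37 without replicate 2 of 20 ppm and 1109 without replicate 3, while 1 to 2 receptors were called whichever array was left out. At 40 ppm 6 of 10 were higher and none lower, where 14.6% of all probe sets were called and 8.74% of the main probe sets passed upward and 6.24% downward. At 120 ppm 6 of 10 were again higher and none lower, where 19.4% of all probe sets were called and 11.2% of the main probe sets passed upward and 7.99% downward. Over the 10 receptors the difference from air had a median of 0.21 at 20 ppm, a median of 0.41 at 40 ppm and a median of 0.48 at 120 ppm. Over all probe sets these medians were 0.01, 0.04 and 0.06.

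The 6 receptors called at 40 ppm were those called at 120 ppm, namely Nr1i3, Nr1i2, Nr1h4, Nr5a2, Esr1 and Thrb. In 6 of 10 receptors the arrays of 120 ppm lay above those of air without overlap, as did 8.22% of the main probe sets, with 6.14% below. Those 6 receptors include Hnf4a, which was not called, and leave out Thrb, whose groups overlapped. In 5 of 10, Hnf4a among them, the arrays of 40 ppm lay above those of air, as did 8.08% of the main probe sets, with 5.54% below. A moderated F test for any difference among the 7 groups called 6 of 10 receptors, where it called 20.4% of all probe sets and 21.5% of the main probe sets. With centred arrays or a second quantile normalization it called 5. A linear slope on log2(ppm + 1) was called upward for 7 of 10, where 32% of all probe sets were called and 20.1% of the main probe sets were called upward. With arrays centred on their medians 5 slopes were called, and with a second quantile normalization 6. No receptor had a called slope downward. The receptors were chosen with results of these arrays known, and their counts are given beside those of all probe sets as a description.

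**Figure D1:**
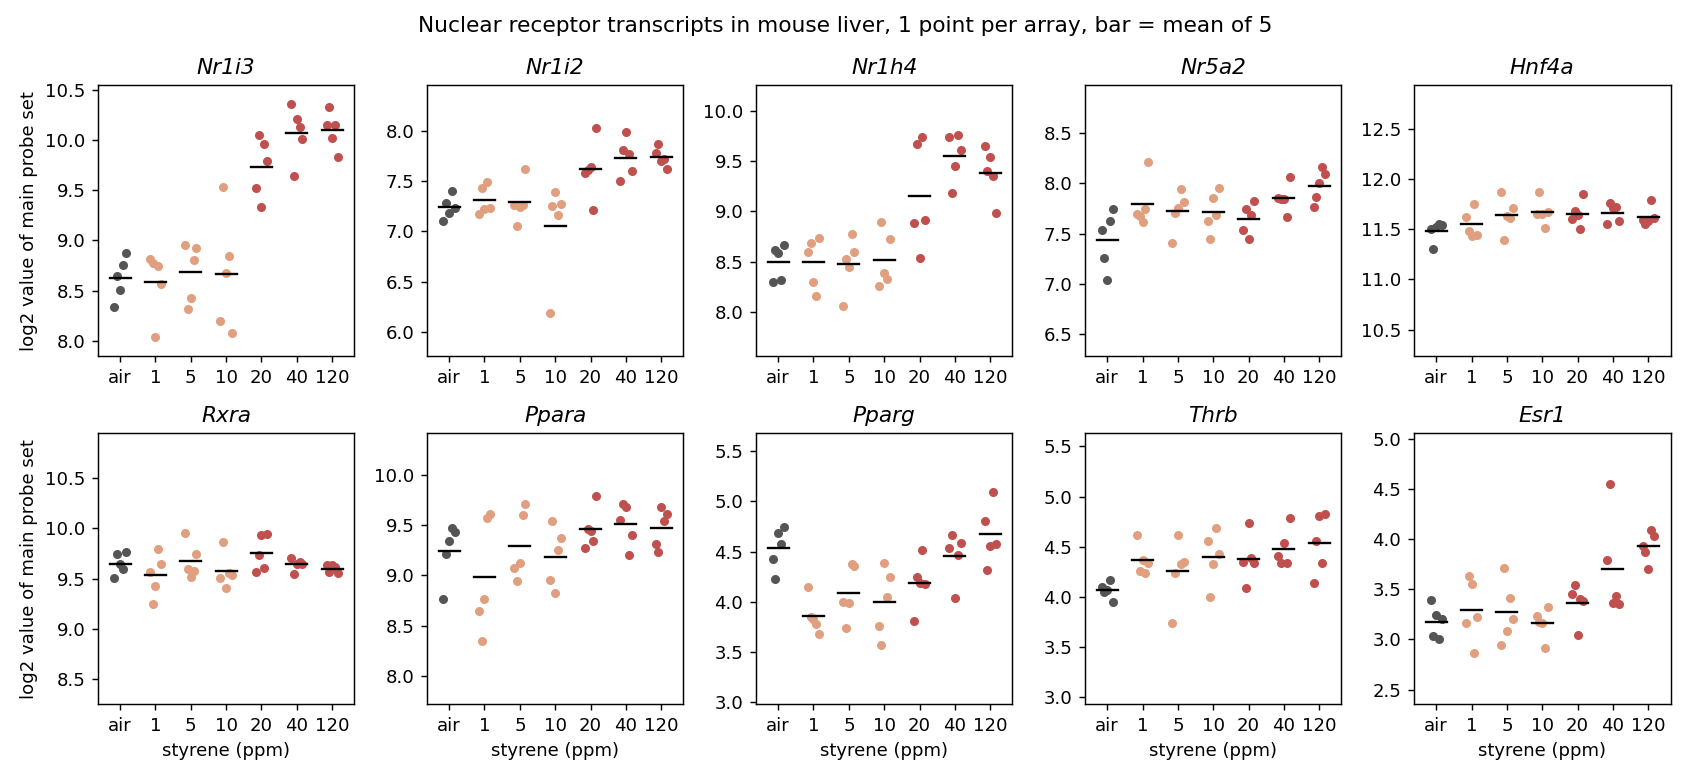
Log2 value of the main probe set of each receptor (vertical axis) by styrene concentration in ppm (horizontal axis), with 1 point per array and a bar at the mean of the 5 arrays. Every vertical axis covers the same span of log2 units around its own data. Nr1i3, Nr1i2 and Nr1h4 lie higher at 40 and 120 ppm than in air without overlap, while Rxra stays between 9.25 and 9.95 in all groups.

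**Figure D2:**
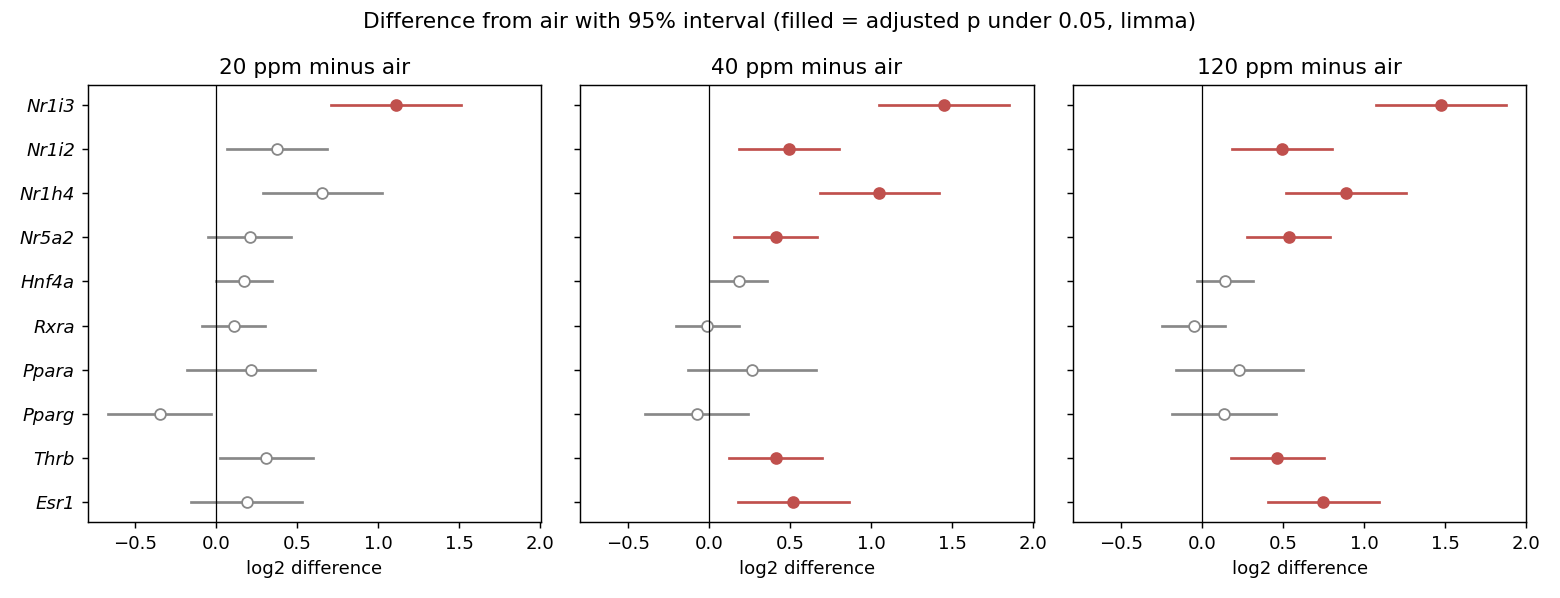
Difference in log2 value of 20, 40 and 120 ppm from air (horizontal axis) for the main probe set of each receptor (rows), with the 95% confidence interval of the limma fit. Filled points have an adjusted p under 0.05; 1, 6 and 6 receptors are filled in the 3 panels, and all of them lie to the right of 0.

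Nr1i3 encodes CAR, the constitutive androstane receptor, which turns on cytochrome P450 and conjugation genes in response to phenobarbital-like chemicals. On its probe set, 1425392_PM_a_at, the 5 air arrays read 8.33, 8.64, 8.50, 8.76 and 8.87. The 1 ppm arrays read from 8.04 to 8.82, those of 5 ppm from 8.31 to 8.96 and those of 10 ppm from 8.07 to 9.53. The 20 ppm arrays read 9.52, 10.05, 9.34, 9.96 and 9.79. No array of 20 ppm was as low as the highest air array, while the 10 ppm array at 9.53 lay inside the range of 20 ppm. At 40 ppm the values were 10.36, 9.64, 10.21, 10.13 and 10.01, and at 120 ppm they were 10.15, 10.33, 10.02, 10.15 and 9.83. Every array of 20, 40 and 120 ppm thus stood above every air array. At 20 ppm 1.19% of main probe sets lay above air without overlap, and Nr1i3 was the 1 receptor that did.

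The mean of Nr1i3 was 9.73 ± 0.30 at 20 ppm against 8.62 ± 0.21 in air (SD, n = 5 each), a difference of 1.11 ± 0.20 (SE) or 2.16-fold, with a limma adjusted p of 0.00707. At 40 ppm the difference was 1.45 ± 0.20 (SE), 2.73-fold, with an adjusted p of 1.9e-05. At 120 ppm it was 1.47 ± 0.20 (SE), 2.78-fold with a 95% interval of 2.10 to 3.67, and an adjusted p of 1.14e-05. Nr1i3 had the smallest F test p of the 10 receptors (adjusted p = 4.19e-08), and its slope was 0.26 per doubling of ppm + 1 (adjusted p = 4.76e-07). Between neighbouring concentrations, 20 ppm was 1.07 above 10 ppm (limma adjusted p = 0.019), in a comparison where 0.349% of all probe sets were called. The next step, 40 minus 20 ppm, was 0.34 (adjusted p = 0.46) where 0.373% of probe sets were called, and 120 minus 40 ppm was 0.03 (adjusted p = 1) where 0.0244% were called. The difference of 20 ppm from air was no longer called when only those 2 groups were fitted (adjusted p = 0.0593), a fit in which 0 of all probe sets were called. The step from 10 to 20 ppm lost its call without replicate 1, 3 or 5 of 10 ppm (adjusted p = 0.0636, 0.0575 and 0.0822) or replicate 2 or 4 of 20 ppm (adjusted p = 0.119 and 0.0902).

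Nr1i2 encodes PXR, the pregnane X receptor, which responds to a wide range of drugs and steroids and shares many targets with CAR. On the main probe set, 1425723_PM_at, the 120 ppm arrays read 7.78, 7.87, 7.70, 7.72 and 7.62, and the 40 ppm arrays 7.50, 7.81, 7.99, 7.77 and 7.60. The air arrays read 7.11, 7.29, 7.19, 7.40 and 7.23. All arrays of 40 and 120 ppm were above all air arrays. The mean was 7.74 ± 0.09 at 120 ppm against 7.24 ± 0.11 in air (SD, n = 5 each), a difference of 0.50 ± 0.15 (SE) or 1.41-fold (limma adjusted p = 0.0209). At 40 ppm the difference was 0.49 (adjusted p = 0.0266). At 20 ppm it was 0.37 (adjusted p = 0.278), and 4 of 5 arrays, at 7.59, 7.61, 7.64 and 8.03, lay above the air range while the other read 7.22.

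A single array of Nr1i2 at 10 ppm, replicate 1, read 6.19 where the next lowest of its group read 7.16. The second probe set of Nr1i2, 1451807_PM_at, read 5.39 on the same array, against 7.09 for the next lowest. On that second probe set the difference from air was 0.58 (adjusted p = 0.0547) at 120 ppm and 0.59 (adjusted p = 0.0617) at 40 ppm, similar in size to the main probe set but not called. Its F test (adjusted p = 0.0122) and its slope (0.10, adjusted p = 0.0116) were called, as were those of the main probe set (adjusted p = 0.00281 and 0.00293). Centring each array on its own median ended both calls of the main probe set against air, at 0.42 (adjusted p = 0.0518) for 40 ppm and 0.40 (adjusted p = 0.0556) for 120 ppm. The 40 ppm call also ended without replicate 1 or 3 of air (adjusted p = 0.0583 and 0.0578) or replicate 2 or 3 of 40 ppm (adjusted p = 0.0526 and 0.0766).

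Nr1h4 encodes FXR, the farnesoid X receptor, which binds bile acids and restrains their synthesis. At 40 ppm its probe set, 1419105_PM_at, read 9.73, 9.19, 9.45, 9.76 and 9.61, and at 120 ppm 9.65, 9.40, 9.54, 9.35 and 8.98. The air arrays read 8.29, 8.62, 8.58, 8.31 and 8.67. No array of 40 or 120 ppm fell within the air range. The means were 9.55 ± 0.24 at 40 ppm, 9.38 ± 0.25 at 120 ppm and 8.50 ± 0.18 in air (SD, n = 5 each). The difference was 1.05 ± 0.18 (SE) or 2.07-fold at 40 ppm (limma adjusted p = 0.000252) and 0.89 ± 0.18 (SE) or 1.85-fold at 120 ppm (adjusted p = 0.00104).

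The 20 ppm arrays of Nr1h4 were spread wider than those of any other group, with values of 8.89, 9.67, 8.53, 9.74 and 8.92 and an SD of 0.53. A pair of them reached the 40 ppm level, and 1 lay inside the air range. The difference of 20 ppm from air was 0.65 (adjusted p = 0.069), and it became 0.81 (adjusted p = 0.00826) without replicate 3 of 20 ppm. The step from 10 to 20 ppm was 0.64 (adjusted p = 0.119), and it was called without that replicate (adjusted p = 0.0181) or without replicate 2 of 10 ppm (adjusted p = 0.0474). The F test (adjusted p = 1.11e-05) and the slope (0.17, adjusted p = 1.56e-05) were called. At 1, 5 and 10 ppm the means of Nr1h4 were within 0.02 of that of air.

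Nr5a2 encodes LRH-1, the liver receptor homolog that takes part in bile acid synthesis and cholesterol transport. On its probe set, 1420410_PM_at, the 120 ppm arrays read 7.76, 7.86, 8.0, 8.17 and 8.09, and the 40 ppm arrays 7.85, 7.84, 7.85, 7.66 and 8.06. The air arrays read 7.53, 7.26, 7.04, 7.62 and 7.74. The 120 ppm arrays were all above those of air, and 1 array of 40 ppm lay within the air range. The difference was 0.54 ± 0.13 (SE) or 1.45-fold at 120 ppm (limma adjusted p = 0.00345) and 0.41 ± 0.13 (SE) at 40 ppm (adjusted p = 0.025). Group means ran 7.44 in air, 7.79 at 1 ppm, 7.72 at 5 ppm, 7.72 at 10 ppm, 7.65 at 20 ppm, 7.85 at 40 ppm and 7.98 at 120 ppm, with air as the lowest of the 7.

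Against the mean of the 1, 5 and 10 ppm groups in place of air, an alternative chosen after seeing the data, Nr5a2 was 0.23 higher at 120 ppm (limma adjusted p = 0.0921) and 0.11 higher at 40 ppm (adjusted p = 0.476). Neither was called. The 40 ppm call against air ended when arrays were centred on their medians (0.34, adjusted p = 0.0554). It also ended without replicate 2 or 3 of air (adjusted p = 0.0677 and 0.107) or replicate 5 of 40 ppm (adjusted p = 0.0759). The F test passed narrowly (adjusted p = 0.0417), and it failed without replicate 1, 2 or 3 of air, replicate 1 of 20 ppm, replicate 1, 2, 3 or 5 of 40 ppm, or replicate 3, 4 or 5 of 120 ppm, with adjusted p up to 0.122. It failed too with centred arrays (adjusted p = 0.112) and with a second quantile normalization (adjusted p = 0.0647). The slope was 0.05 (adjusted p = 0.00967).

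Hnf4a encodes a receptor that binds DNA as a homodimer and maintains the hepatocyte's identity through genes for apolipoproteins, clotting factors and metabolic enzymes. At 120 ppm its main probe set, 1427001_PM_s_at, read 11.59, 11.55, 11.59, 11.79 and 11.61, against 11.50, 11.30, 11.52, 11.55 and 11.55 in air. The 2 groups barely separated, with the lowest 120 ppm array at the level of the highest air array. The difference of 0.14 had a 95% interval of -0.03 to 0.31 and was not called (limma adjusted p = 0.248). At 40 ppm the arrays also lay just above those of air, with a difference of 0.18 (adjusted p = 0.144). The 3 other probe sets of Hnf4a differed by 0.01, 0.02 and 0.10 at 120 ppm and were not called. The F test did not call the main probe set (adjusted p = 0.418), and the highest and lowest of its 7 group means lay 0.19 apart.

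Rxra, the shared heterodimer partner of CAR, PXR, FXR, the PPARs and the thyroid hormone receptor, was not called at any concentration. Its main probe set, 1454773_PM_at, read 9.63, 9.56, 9.63, 9.61 and 9.55 at 120 ppm, against 9.50, 9.74, 9.64, 9.60 and 9.77 in air. The 120 ppm arrays all lay within the air range. The difference was -0.05 with a 95% interval of -0.25 to 0.14 (limma adjusted p = 0.742), a fold between 0.84 and 1.11. A second probe set, 1425762_PM_a_at, differed by 0.21 at 120 ppm (95% interval 0.05 to 0.38, adjusted p = 0.0645) and was called by the F test (adjusted p = 0.0167) and by the slope (0.04, adjusted p = 0.0021). The 2 probe sets of Rxra therefore differed in their calls across the 7 groups. The remaining probe set, 1430497_PM_at, differed by 0.02 (adjusted p = 0.93).

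**Figure D3:**
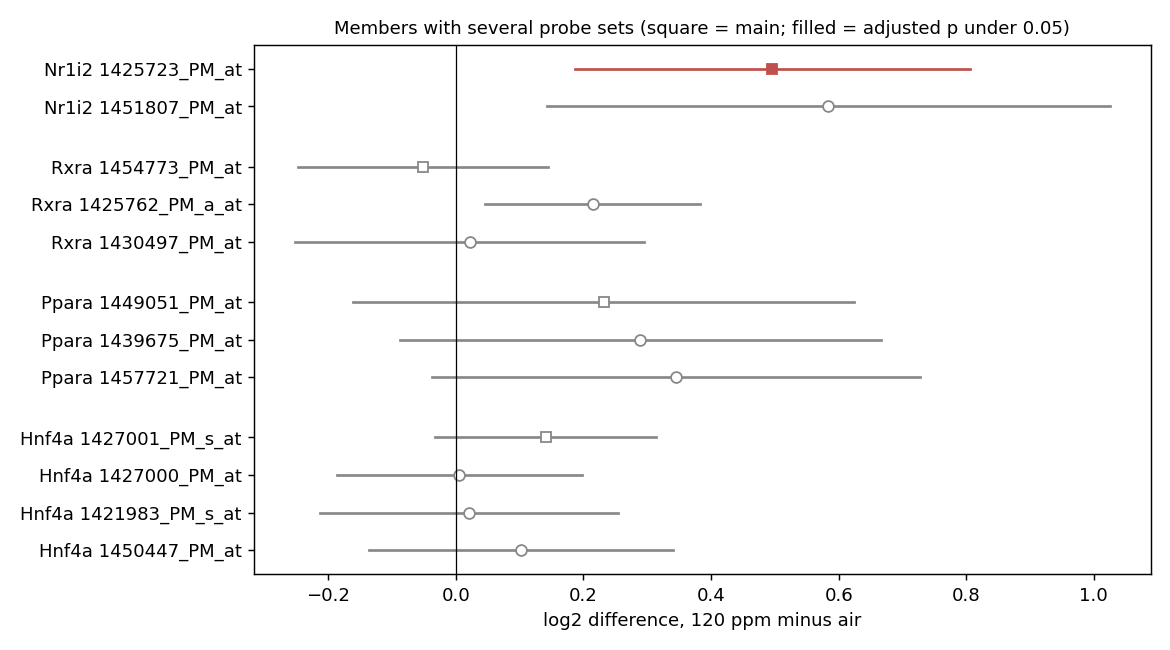
Difference in log2 value of 120 ppm from air (horizontal axis) with its 95% interval for every single-gene probe set (rows) of the 4 receptors with several probe sets. Squares are the main probe sets and filled symbols have an adjusted p under 0.05; the 2 probe sets of Nr1i2 lie at 0.50 and 0.58, and the 3 of Rxra at -0.05, 0.21 and 0.02.

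Ppara encodes the receptor through which fatty acids raise the enzymes of their own oxidation during fasting. On the main probe set, 1449051_PM_at, the 120 ppm arrays read 9.32, 9.23, 9.68, 9.55 and 9.61, and the air arrays 8.76, 9.21, 9.35, 9.48 and 9.43. The groups overlapped. The difference was 0.23 at 120 ppm, with a 95% interval of -0.16 to 0.62 (limma adjusted p = 0.416), and 0.27 at 40 ppm (adjusted p = 0.373). The F test did not call it (adjusted p = 0.252). Its slope of 0.06 passed (adjusted p = 0.0405), as did those of its other 2 probe sets (adjusted p = 0.0265 and 0.00897), but the call on the main probe set ended with centred arrays (adjusted p = 0.113). It ended too without replicate 1 of air, replicate 1, 2 or 3 of 1 ppm, replicate 1, 2 or 3 of 40 ppm, or replicate 3, 4 or 5 of 120 ppm, with adjusted p up to 0.0803.

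Pparg, the adipocyte receptor that hepatocytes carry at low levels, had its lowest mean at 1 ppm. On its probe set, 1420715_PM_a_at, the 7 group means, from low to high concentration, were 4.54 in air, 3.86 at 1 ppm, 4.09 at 5 ppm, 4.00 at 10 ppm, 4.19 at 20 ppm, 4.46 at 40 ppm and 4.67 at 120 ppm. Arrays of 1 ppm read 4.14, 3.85, 3.83, 3.79 and 3.69, against 4.43, 4.23, 4.69, 4.58 and 4.75 in air. The arrays of 1 ppm lay below those of air without overlap, as did 0.573% of main probe sets, and the means then lay progressively closer to that of air up to 40 ppm, with the exception of 10 ppm. The F test called Pparg (adjusted p = 0.00102), but limma called no single concentration against air. The difference was -0.68 at 1 ppm (adjusted p = 0.254), -0.08 at 40 ppm (adjusted p = 0.791) and 0.14 at 120 ppm (adjusted p = 0.57).

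Set against the mean of the 1, 5 and 10 ppm groups in place of air, Pparg was 0.69 higher at 120 ppm (limma adjusted p = 0.000228) and 0.47 higher at 40 ppm (adjusted p = 0.00828). The choice between air and the lowest concentrations as the baseline thus turned the direction at 40 ppm, and this alternative was chosen after seeing the data. The slope over all groups was 0.05 and not called (adjusted p = 0.0925), and it was called without replicate 3, 4 or 5 of air (adjusted p = 0.0391, 0.0481 and 0.031). The 3 measured adipocyte markers, Adipoq, Retn and Lep, had a list mean of 2.96 to 3.37 at 120 ppm and 2.91 to 3.20 in air, and none was called. Those means lay below the array medians over all probe sets, which averaged 3.60 at 120 ppm and 3.50 in air. Such dim markers cannot tell whether adipocyte RNA changed.

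Thrb encodes the thyroid hormone receptor beta, the main form in liver. Its probe set, 1422202_PM_at, read 4.14, 4.55, 4.81, 4.34 and 4.83 at 120 ppm and 4.41, 4.33, 4.54, 4.34 and 4.79 at 40 ppm, against 4.10, 4.04, 4.07, 4.17 and 3.95 in air. All 40 ppm arrays lay above air, and 1 array of 120 ppm lay within the air range. The differences of 0.47 ± 0.14 (SE) at 120 ppm (limma adjusted p = 0.0199) and 0.41 ± 0.14 (SE) at 40 ppm (adjusted p = 0.0457) were called, while the F test was not (adjusted p = 0.152). The 1 ppm arrays, at 4.62, 4.26, 4.37, 4.24 and 4.34, also lay above every air array, with a difference of 0.30 that was not called (adjusted p = 0.884), where 0.544% of main probe sets lay above air without overlap. Against the mean of 1, 5 and 10 ppm the differences were 0.19 at 120 ppm (adjusted p = 0.215) and 0.14 at 40 ppm (adjusted p = 0.407).

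The slope of Thrb was 0.06 (adjusted p = 0.0108), and it was not called with centred arrays (0.04, adjusted p = 0.0532) or a second quantile normalization (0.03, adjusted p = 0.168). The calls of Thrb against air also depended on the scaling. Centring gave 0.37 at 120 ppm (limma adjusted p = 0.0628) and 0.34 at 40 ppm (adjusted p = 0.0982), and a second quantile normalization gave 0.29 (adjusted p = 0.141) and 0.24 (adjusted p = 0.252). The 120 ppm call ended without replicate 3 or 5 of that group (adjusted p = 0.0634 and 0.0624). The 40 ppm call ended without any 1 of the 5 air arrays (adjusted p = 0.0564 to 0.0878) or without replicate 1, 3 or 5 of 40 ppm, with adjusted p up to 0.138.

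Esr1 encodes the estrogen receptor alpha, the main estrogen receptor of hepatocytes. Its probe set, 1421244_PM_at, read 3.93, 3.87, 3.70, 4.09 and 4.03 at 120 ppm and 3.79, 4.54, 3.36, 3.43 and 3.35 at 40 ppm, against 3.39, 3.04, 3.24, 3.01 and 3.20 in air. All 120 ppm arrays were above those of air, while 2 of the 40 ppm arrays lay within the air range and 1 stood apart at 4.54. The difference was 0.75 ± 0.17 (SE) or 1.68-fold at 120 ppm (limma adjusted p = 0.00237) and 0.52 ± 0.17 (SE) at 40 ppm (adjusted p = 0.0332). Without the 40 ppm array at 4.54, replicate 2, the 40 ppm difference was 0.31 (adjusted p = 0.153). That call also ended without replicate 2, 3 or 4 of air (adjusted p = 0.0733, 0.0532 and 0.0773) or replicate 1 of 40 ppm (adjusted p = 0.0675).

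The F test called Esr1 (adjusted p = 0.00373), and its slope was 0.10 (adjusted p = 0.000634). At 40 ppm the call also ended with centred arrays (adjusted p = 0.0705), a second quantile normalization (adjusted p = 0.0679) or a fit of 40 ppm and air alone (adjusted p = 0.0765). The medians of the arrays over all probe sets were 3.60 ± 0.03 at 120 ppm and 3.50 ± 0.02 in air (SD, n = 5 each), with no overlap. All air arrays of Esr1 read below the air medians, and all 120 ppm arrays above the 120 ppm medians.

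Some measures of the arrays and some markers of other cell types differed between 120 ppm and air. In that comparison 11.2% of main probe sets were called higher and 7.99% lower. The 3′ minus 5′ signal of actin, which falls or rises with RNA integrity and labelling, was 0.717 ± 0.051 at 120 ppm against 0.478 ± 0.048 in air (SD, n = 5 each), and the same measure of GAPDH was 0.120 ± 0.048 against 0.147 ± 0.047. The actin measure was already 0.724 ± 0.109 at 20 ppm, against 0.581 ± 0.053 at 10 ppm, the step at which Nr1i3 was called, and 1 array of 20 ppm stood apart in the GAPDH measure at -0.402. Of 8 hepatocyte markers (Alb, Apoa2, Ttr, Tat, Cps1, Ass1, Fah and Hpd) none was called at 120 ppm, and their mean ranged from 12.87 to 13.03 at 120 ppm and from 12.94 to 13.02 in air; with centred arrays 2 of them, Ttr and Ass1, were lower. Of 11 Kupffer cell markers 5 were lower, including Clec4f and C1qa, with a list mean of 6.40 to 7.06 at 120 ppm and 6.80 to 7.83 in air, and 7 were lower with centred arrays and 6 with a second quantile normalization. Of 10 sinusoidal endothelial markers 2 were lower, of 9 stellate and fibroblast markers 1 was lower (3 with centred arrays), of 8 neutrophil markers 1 was higher (with 1 lower too when centred), of 5 lymphocyte markers 2 were higher (none higher and 1 lower with centred arrays or a second quantile normalization), and of 5 cholangiocyte markers none was called. The list mean of the endothelial markers ranged from 7.04 to 7.25 at 120 ppm and from 7.05 to 7.48 in air. That of the lymphocyte markers ranged from 3.59 to 3.77 and from 3.48 to 3.72, so both overlapped. The marker counts were not tested against the shares of all main probe sets. In a piece of whole liver, fewer cells of a type and less RNA per cell cannot be told apart. The part of these measures in the receptor results was not tested.

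The number in each sample's name runs in blocks, 1 block per group, so that number and concentration cannot be told apart between groups. Within groups, Ppara was 0.079 higher per unit of that number (95% interval 0.039 to 0.119, limma adjusted p = 0.0197), where 2.6% of all probe sets were called. Its other 2 probe sets had slopes of 0.084 and 0.085 per unit (adjusted p = 0.00509 and 0.00472). Nr5a2 was 0.053 higher per unit (95% interval 0.028 to 0.079, adjusted p = 0.0129). The other 8 receptors were not called, and for Nr1i3 the slope was 0.00018 with a 95% interval of -0.050 to 0.050 (adjusted p = 0.999). Adding that number, centred within each group, to the model changed no call of a receptor in any comparison. Centred in this way it could alter only the error estimate, and no difference between groups or slope on concentration. It therefore cannot address the blocks of numbers between groups. What the number stands for, such as the order of exposure or of handling, is not given in the sources used here.

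**Figure D4:**
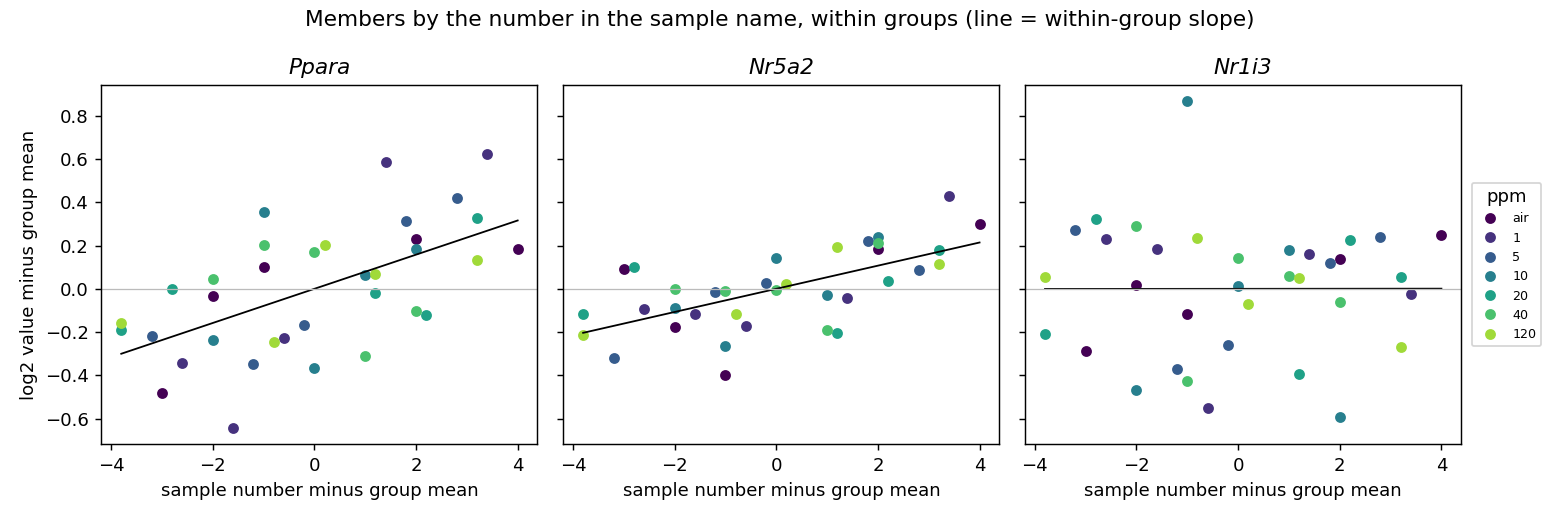
Log2 value minus the group mean (vertical axis) against the number in the sample's name minus its group mean (horizontal axis) for the main probe sets of Ppara, Nr5a2 and Nr1i3, with 1 point per array coloured by ppm and the within-group slope as a line. The lines rise by 0.079 for Ppara and 0.053 for Nr5a2 per unit and lie flat for Nr1i3.

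For each receptor called by the F test, the 3 genes whose 7 group means came closest were found by the root mean square difference of centred means, in log2 units over 7 groups. Nr1i3 was closest to Cyp4a31 (0.11), to Cyp4a10 (0.122), a fatty acid omega-hydroxylase, and to Susd1 (0.124). Nr1h4 was closest to Atr (0.0434), a kinase of the DNA damage response, to Amigo2 (0.0536) and to the glutathione transferase Gstt2 (0.0607). Nr1i2 was closest to the transcriptional repressor Erf (0.0495), to Crcp (0.0509) and to Cradd (0.0513). Nr5a2 was closest to Klf9 (0.0393), a Krüppel-like transcription factor, to the Mediator subunit Med13 (0.0397) and to Akap2 (0.043). Esr1 was closest to Gm36741 (0.0223), 9130023H24Rik (0.0414) and Fhad1 (0.0431), and Pparg to Magi1 (0.0971), to the replication licensing factor Cdt1 (0.0986) and to Cfap126 (0.108). Of these nearest genes, Erf, Klf9, Med13 and Cdt1 were not themselves called by the F test (adjusted p = 0.0781, 0.199, 0.399 and 0.615). The group means of a gene share their arrays with those of the receptor, and the measure is a description.

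Of the 7 lists of known receptor targets, 6 held both called rises and called falls at 120 ppm, in a comparison with 11.2% of main probe sets called higher and 7.99% called lower. Of 13 measured CAR and PXR targets 3 were higher and 1 was lower at 120 ppm, with a median difference of 0.33. At 40 ppm 6 were higher and 1 lower, where 8.74% of main probe sets were called higher and 6.24% lower. Cyp3a13, a cytochrome P450 of drug oxidation, averaged 11.01 ± 0.16 at 120 ppm and 9.68 ± 0.36 in air (SD, n = 5 each), a difference of 1.32 (limma adjusted p = 0.000187). Cyp2c55, another cytochrome P450, averaged 5.45 ± 0.60 at 120 ppm and 7.89 ± 1.03 in air, a difference of -2.44 (adjusted p = 0.000779). The conjugate exporters Abcc2 (0.48, adjusted p = 0.00168) and Abcc3 (0.50, adjusted p = 0.0445) were higher. Cyp2b10 and Cyp3a11, the textbook targets of CAR and PXR, named here after their values were seen, differed by 0.33 (adjusted p = 0.699) and 0.24 (adjusted p = 0.45) and were not called. Cyp2b10 had an SD of 1.23 among the air arrays.

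Of 14 measured FXR targets 1 was higher and none lower at 120 ppm (median 0.11). It was Slc10a1, the sinusoidal bile acid importer, with 12.15 ± 0.07 at 120 ppm against 11.75 ± 0.15 in air (SD, n = 5 each), a difference of 0.41 (limma adjusted p = 0.0241) that was not called with centred arrays (adjusted p = 0.0917). Nr0b2, the corepressor SHP that FXR induces, was named after its values were seen. It averaged 8.60 ± 0.25 at 120 ppm and 9.46 ± 0.58 in air, a difference of -0.86 (adjusted p = 0.0758). Cyp7a1, the rate-limiting enzyme of bile acid synthesis and likewise named after its values were seen, averaged 7.95 ± 1.12 at 120 ppm and 6.50 ± 1.11 in air (adjusted p = 0.202). Neither was called. The list pools genes that FXR induces, such as Nr0b2, with genes of the synthesis it restrains, such as Cyp7a1. Its count and median, and the rise of Slc10a1, therefore do not give a direction of FXR activity.

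Of 8 measured LRH-1 targets 1 was higher and 1 lower (median 0.12). Abcg5, part of the sterol exporter, was 0.77 higher (adjusted p = 0.00805 by limma), and Apom, an apolipoprotein, differed by -0.41 (adjusted p = 0.000115). Of 14 HNF4A targets 3 were higher and 2 lower (median 0.09). Apob differed by 0.78 (adjusted p = 0.000365) and Apoa4 by 1.40 (adjusted p = 0.00334), both apolipoproteins, while the glucuronosyltransferase Ugt2b1 differed by -0.41 (adjusted p = 0.0223) and G6pc, the last enzyme of glucose release, by -0.69 (adjusted p = 0.0276).

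Of 16 measured PPARA targets 6 were higher and 2 lower at 120 ppm, with a median of -0.06. At 40 ppm 6 were higher and none lower, and at 20 ppm 3 were higher and none lower. Cpt1a, which admits fatty acids to mitochondria, averaged 11.26 ± 0.19 at 120 ppm and 10.44 ± 0.22 in air (SD, n = 5 each), a difference of 0.82 (limma adjusted p = 0.000565). The carnitine carrier Slc25a20 differed by 0.47 (adjusted p = 0.00523). The peroxisomal thiolase Acaa1b differed by -0.67 (adjusted p = 0.000908) and the fatty acid binding protein Fabp1 by -0.35 (adjusted p = 0.00691). Of 6 PPARG targets 1 was higher, the fatty acid transporter Cd36 (0.77, adjusted p = 0.0369), and 1 was lower, Fabp4 (-0.51, adjusted p = 0.0266). Cd36 was not called with centred arrays (adjusted p = 0.0707).

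Of 11 measured thyroid hormone receptor targets 2 were higher and 4 lower at 120 ppm, with a median of -0.55. The mitochondrial glycerol phosphate dehydrogenase Gpd2 averaged 6.92 ± 0.21 at 120 ppm and 7.86 ± 0.20 in air (SD, n = 5 each), a difference of -0.93 (limma adjusted p = 2.47e-05). Dio1, the liver deiodinase that activates thyroid hormone, averaged 9.92 ± 0.27 at 120 ppm and 10.91 ± 0.20 in air, a difference of -0.99 (adjusted p = 0.000113). Malic enzyme, Me1, differed by -0.98 (adjusted p = 0.000477), and Cpt1a, which is also on this list, by 0.82. The transcript of the receptor itself, Thrb, was called higher in the same comparison. That call ended with centred arrays (limma adjusted p = 0.0628) or a second quantile normalization (adjusted p = 0.141). The F test did not call Thrb (adjusted p = 0.152).

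No called target gene turned its direction at 120 ppm when arrays were centred on their medians or quantile normalized again. Quantile normalization left the calls of all 7 target lists as they were. Centring changed the counts of 6 of them. The CAR and PXR targets then had 2 higher and 2 lower, the FXR targets none, the PPARA targets 6 higher and 4 lower, and the PPARG targets 1 lower. The HNF4A targets had 2 higher and 3 lower and the thyroid hormone receptor targets 1 higher and 4 lower. The small list medians turned sign with centring for the HNF4A targets (-0.01) and the PPARG targets (-0.06), and the PPARG median also with quantile normalization (-0.03).

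**Figure D5:**
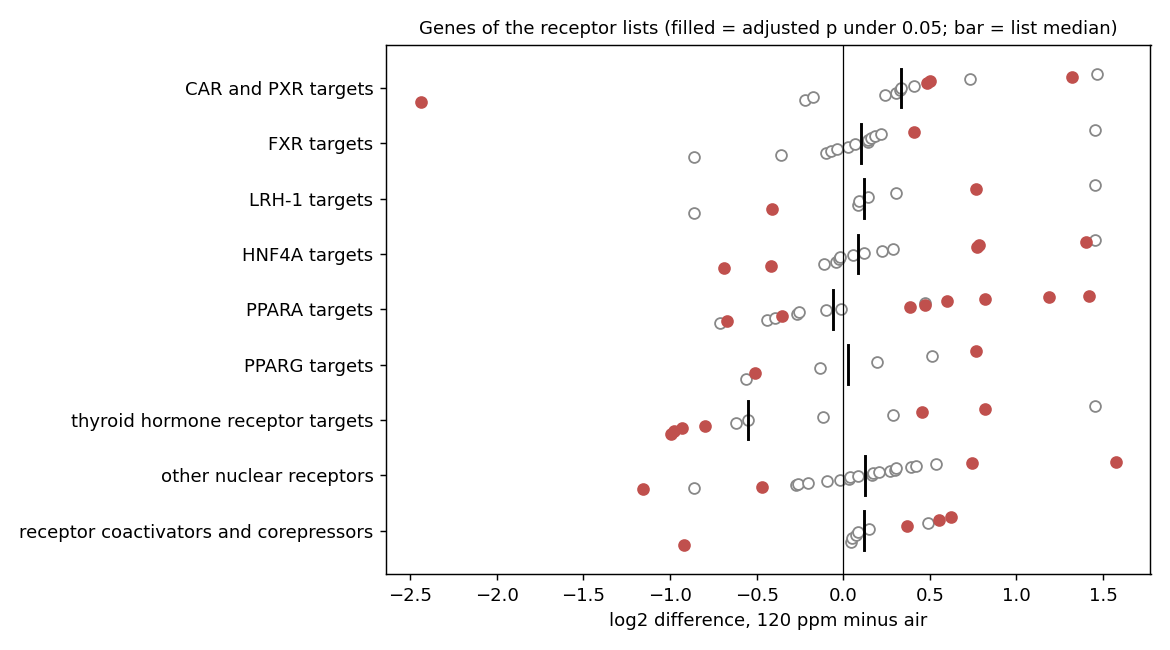
Difference in log2 value of 120 ppm from air (horizontal axis) for each measured gene of the 9 lists of receptor targets, other receptors and coregulators (rows), with a bar at the list median. Filled points have an adjusted p under 0.05; the thyroid hormone receptor targets have the lowest median (-0.55) and the CAR and PXR targets the highest (0.33).

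Of 22 other nuclear receptors measured, 2 were higher and 2 lower at 120 ppm (median 0.13). These counts lie near the shares of all main probe sets, of which 11.2% were called higher and 7.99% lower. Nr1d2, the clock repressor REV-ERB beta, averaged 9.52 ± 0.41 at 120 ppm and 7.94 ± 1.08 in air (SD, n = 5 each), a difference of 1.57 (limma adjusted p = 0.0114). Rora, the activator that shares its DNA element, differed by 0.74 (adjusted p = 0.0159). Nr2f6, an orphan receptor of the COUP family, differed by -0.47 (adjusted p = 0.00345). Ppard averaged 3.83 ± 0.16 at 120 ppm and 4.99 ± 0.95 in air, a difference of -1.16 (adjusted p = 0.0201). Its air arrays were widely spread, and its 120 ppm mean was near the array median of 3.60. Centring the arrays left 2 higher and 4 lower, the added falls being Rxrb (-0.36, adjusted p = 0.0408) and the oxysterol receptor Nr1h3 (-0.36, adjusted p = 0.0126).

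Of 10 measured coactivators and corepressors of nuclear receptors 3 were higher and 1 lower at 120 ppm (median 0.12). In the same comparison 11.2% of main probe sets were called higher and 7.99% lower. Nrip1, the corepressor RIP140, averaged 6.62 ± 0.24 at 120 ppm and 6.00 ± 0.31 in air (SD, n = 5 each), a difference of 0.62 (limma adjusted p = 0.000813). Tbl1xr1, a subunit of the NCoR corepressor complex, differed by 0.56 (adjusted p = 0.00332), and Med1, the Mediator subunit that contacts liganded receptors, by 0.37 (adjusted p = 0.044). Cited2, which binds the coactivators CBP and p300, differed by -0.92 (adjusted p = 0.00216). With centred arrays 2 were higher and 1 lower, and the Med1 call ended (adjusted p = 0.14).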

How the data were processed

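Liver RNA of 35 mice was hybridised to Affymetrix 3′ IVT arrays, 1 per mouse, per the labels' protocols. The deposited file gave a single log2 value per probe set and array, from 1.74 to 14.23. Per the submitters' processing notes RMA and Partek were used, with no version, role or order given. The log base, not given in the sources used here, was taken as 2 from this range, on which every fold change depends. No further normalization was added. Scanner files were not used here, so detection above background was not determined, and the number of arrays limits the precision.

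Of 45141 probe sets 104 controls were left out. A platform annotation gave 28898 of the rest 1 gene symbol, and 0 symbols changed on lookup through gene identifiers. Tests used R 4.3.3 with limma 3.58.1 and the data.table package, version 1.17.8, on all 35 arrays, with a mean per group, 28 residual and 5.41 prior degrees of freedom, and Benjamini-Hochberg adjustment over 45037 probe sets in each comparison. A second model fitted the slope on log2(ppm + 1). The scripts were tested on simulated data. Each mouse is a separate sample, as labelled.

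The receptors, gene lists and tests were chosen with earlier results of these data known. Named genes were the 10 receptors, up to 4 called genes with the smallest p at 120 ppm per list, and for each receptor called by the F test the 3 genes with the most alike group means. The alternatives were median-centred arrays, a second quantile normalization, only probe sets at or above the median brightness, an intensity-dependent prior, array weights, fits of 2 groups alone, the replicate number as a block, the sample number within groups, the mean of all probe sets of a gene, leaving out each array, and, added after seeing the data, the mean of 1, 5 and 10 ppm in place of air.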

Additional observations from a re-analysis of the deposited data

Results flagged for a closer look

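In each group of 5 arrays, an array was singled out when its gap to the nearest other array took more than Dixon's 95% share of the group's range, which chance alone does in about 1 of 20 groups. Of 126 groups tested over the 18 probe sets of the receptors, 7 had such an array. Nr1i2 at 10 ppm, replicate 1, read 6.19 on the main probe set, with the nearest array at 7.16, and 5.39 on the second probe set, with the nearest at 7.09. The second probe set of Rxra, 1425762_PM_a_at, had replicate 1 of 20 ppm low at 7.59 (nearest 7.84) and replicate 1 of 5 ppm high at 7.83 (nearest 7.67). The main probe set of Hnf4a had replicate 4 of 120 ppm high at 11.79 (nearest 11.61) and replicate 2 of air low at 11.30 (nearest 11.50). Nr5a2 at 1 ppm, replicate 5, read 8.22 (nearest 7.75).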

How the results depend on the processing

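Nr1i3 at 40 and 120 ppm, Nr1h4 at 40 and 120 ppm and Esr1 at 120 ppm kept their call and direction in every alternative run (Esr1 is below the median brightness and was not tested in that one), as did Nr1i2 and Nr5a2 at 120 ppm without any 1 array. With arrays centred on their medians 2 receptors rather than 6 were called at 40 ppm and 4 at 120 ppm, and the split of probe sets higher and lower became 2712 and 3863 at 40 ppm (4384 and 2202 as deposited), 2943 and 5560 at 120 ppm (5846 and 2881), 5345 and 8810 for the slope (9541 and 4873), 148 and 375 at 20 ppm (187 and 279), 47 and 70 for 40 minus 20 ppm (122 and 46) and 6 and 1 for 120 minus 40 ppm (11 and 0). A second quantile normalization called 4 receptors at 40 ppm and 5 at 120 ppm, and gave 2732 and 3234 at 40 ppm, 3570 and 4100 at 120 ppm, 6387 and 6859 for the slope, 26 and 35 for 40 minus 20 ppm and 8 and 1 for 120 minus 40 ppm. At 20 ppm 2 receptors, Nr1i3 and Nr1h4, were called with probe sets at or above the median brightness (9 receptors tested), with array weights or against the mean of 1, 5 and 10 ppm. The limma adjusted p of Nr1h4 was 0.0442, 0.0104 and 0.0112 in these runs. With 20 ppm and air alone 0 were called by limma, where 5 had an unadjusted p under 0.05. For 20 minus 10 ppm array weights called the same 2 (Nr1h4 adjusted p = 0.0126). The 20 ppm count of probe sets was 466, and it was 1037 with array weights, 1004 against the mean of 1, 5 and 10 ppm and 0 in the fit of 2 groups. That of 20 minus 10 ppm was 157, and 619 with array weights and 279 among brighter probe sets. That of 40 minus 20 ppm was 168, and 1017 with array weights and 22 among brighter probe sets. Array weights also gave 10, 217 and 7 at 1, 5 and 10 ppm (2, 69 and 0 otherwise) and 17 for 120 minus 40 ppm (11), while fits of 2 groups gave 0 and 1 at 1 and 5 ppm. Brighter probe sets gave 6 at 10 ppm, 5767 at 120 ppm (8727) and 8890 for the slope (14414), from 22519 tested. The intensity-dependent prior gave 1 at 1 ppm, and quantile normalization 4 at 10 ppm. With 1 mean value per gene, which tests fewer features, the counts were 0, 1, 334, 2698 and 3433 at 1, 5, 20, 40 and 120 ppm, 24 and 7 for 40 minus 20 and 120 minus 40 ppm, 3826 for the F test and 5931 for the slope. Against the mean of 1, 5 and 10 ppm the 40 ppm difference of Pparg was 0.47 in place of -0.08. The causes were not tested. Leaving out 1 array gave 1 to 2 receptors called at 20 ppm, 2 to 6 at 40 ppm, 5 to 6 at 120 ppm, 0 to 2 for 20 minus 10 ppm, 5 to 6 for the F test and 6 to 8 for the slope, and 0 elsewhere. It gave 22 to 120 probe sets at 5 ppm, 37 to 1109 at 20 ppm, 4397 to 6226 at 40 ppm, 6048 to 8115 at 120 ppm, 0 to 521 for 20 minus 10 ppm, the lowest without replicate 2 or 4 of 20 ppm, and 30 to 584 for 40 minus 20 ppm. Deviations from the group means were correlated between arrays of different groups. Of 105 pairs of same-numbered arrays 31 correlated above 0.1, with a median of 0.0268 and a range of -0.394 to 0.374. Of 420 pairs with different numbers 94 did, with a median of -0.0112 and a range of -0.482 to 0.606. Whether the replicate numbers pair the mice was not tested further and is not stated by the labels. With the replicate number as a block 6 receptors were called at 120 ppm and 6 at 40 ppm, and no receptor's call changed. For 120 minus 40 ppm 7 rather than 11 probe sets were called. Every group holds each replicate number on 1 array, so the block could alter the error estimate but not the size of a difference. Signal over background was not known, so dim receptors such as Esr1, Thrb and Pparg are the least certain.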
